A study of Mus musculus with 2 samples.

Results

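Mitosis genes encode the proteins that take a cell through division, and a set of 32 such genes was followed in urothelial organoids under proliferation and differentiation conditions. The set was defined by gene symbols, chosen with earlier results of these data known. All 32 were found among the 31053 genes of the deposited matrices. The organoids derived from the normal urothelium (the lining epithelium of the bladder) of WT C57BL/6 mice aged 8 to 10 weeks. One library came from proliferative organoids (P, NMU-O-P), kept in complete medium. The other came from differentiated organoids (D, NMU-O-D), kept at the end in medium lacking EGF, LY2157299 (a TGF-β receptor inhibitor), Noggin, WNT3A and RSPO1. The scheme described for differentiation experiments was 7 days in complete medium, then reseeding and 7 days in either medium, and it was not restated for these libraries. Single cells were captured in droplets with a 10x 3′ kit, so that each captured RNA molecule carries a unique molecular identifier (UMI) and is counted once near its 3′ end. Each condition held 1 library from an unstated number of mice, so the differences below lack replicates and no p-value was computed.

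In dividing cells, cyclin-dependent kinase 1 bound to A-type and B-type cyclins starts mitosis, kinetochores assemble on centromeres, and spindle microtubules attach to them. The spindle assembly checkpoint holds the cell until every chromosome is attached, after which the anaphase-promoting complex marks cyclin B and securin for destruction and the cell divides. Most of these genes are transcribed mainly in the G2 phase and mitosis, and in the normal bladder few urothelial cells divide.

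Barcodes were kept at over 800 genes and no more than 12% mitochondrial UMIs, which left 6818 of 8194 barcodes in P and 4896 of 6975 in D, with 26681469 and 20305621 UMIs. Median depths were 3405.5 and 3227.5 UMIs per cell. The libraries shared 10 barcodes, 6 of them among kept cells, and none of these was a D cell with at least 3 mitosis genes. The labelled tissue was checked against its markers. The basal keratins Krt5 and Krt14 and the epithelial genes Epcam, Cdh1, Krt8 and Krt18 were detected in both libraries, and the summed uroplakins, membrane proteins of the luminal urothelium, were at 20.5 CPM (UMIs of a gene per 1000000 UMIs of the library) in P and 1245 in D. Leukocyte and endothelial marker lists summed to between 0.67 and 2.46 CPM, erythroid genes were at 0, and of the fibroblast list Dcn had 40 UMIs in P and 1234 in D. Genes counted at least 100 times in both P and D had a median log2 CPM ratio of 0.42 in favour of D, and the ribosomal protein share of UMIs was 35.6% in P and 20.3% in D. Ratios below use CPM, and some are given again after this shift was removed.

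All 32 mitosis genes were detected in both libraries, and all 32 were lower in D. Their summed level was 594 CPM in P (exact Poisson 95% interval 585 to 604) from 15855 UMIs, and in D it was 160 CPM (154 to 165) from 3246 UMIs. At least a 2-fold lower level was found for 29 of 32, whereas 6.89% of the 12904 genes counted at least 20 times in P and D together were that much lower. Of the 28 members with at least 100 UMIs, 25 were at least 2-fold lower against 4.73% of 10719 genes, and 11 were at least 8-fold lower against 0.886%. The other 4 members, Bub1, Ttk, Nuf2 and Ndc80, had fewer UMIs. After the shift was removed, all 28 were at least 2-fold lower against 8.65% of genes. Over the members, the log2 ratio of D to P had a median of −2.90, a 7.44-fold lower level, while the median of all genes with at least 20 UMIs was 0.39. Intervals here and below cover counting error only, and neither the spread between cells nor that between cultures.

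**Figure D1:**
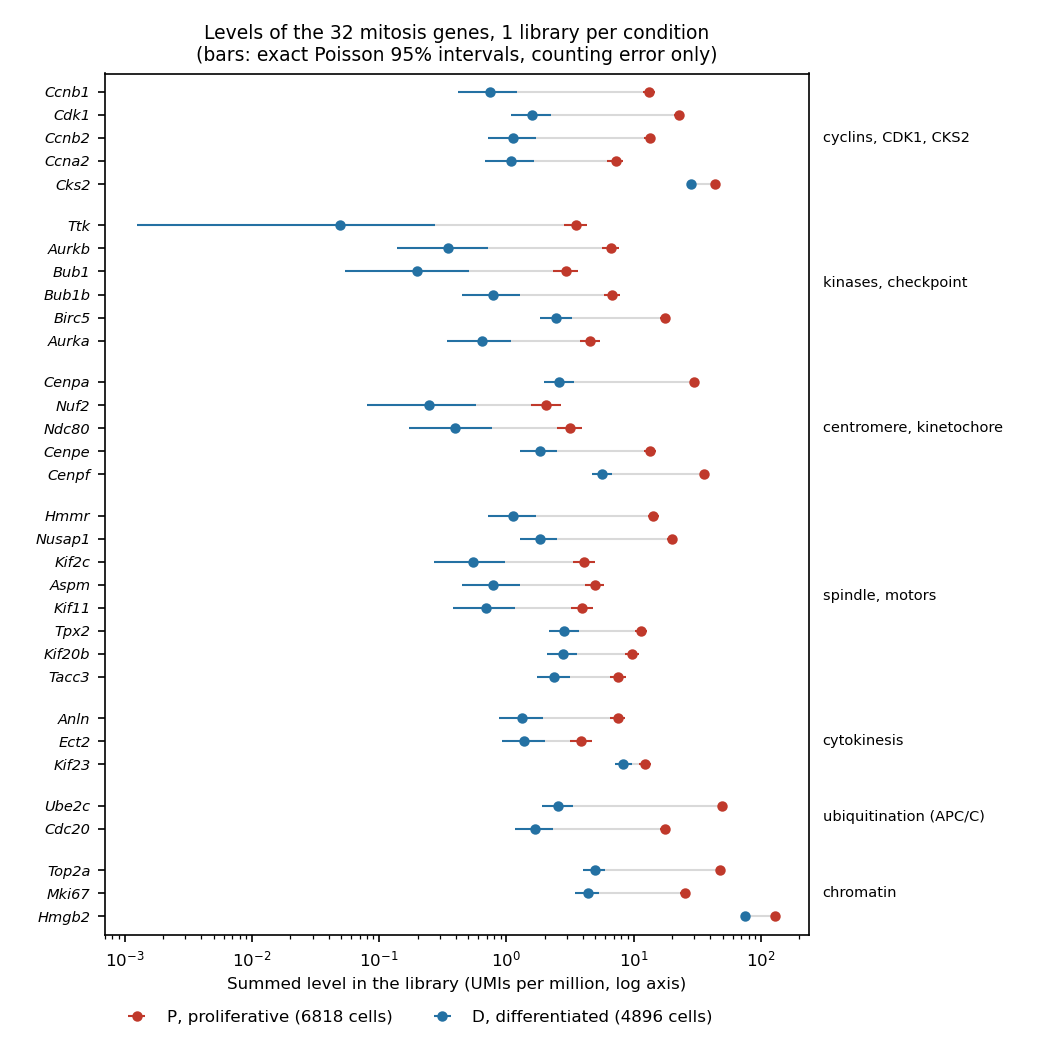
Level of each of the 32 mitosis genes in P (red) and D (blue), in CPM on a log axis, grouped by role. Bars are exact Poisson 95% intervals, and every D point lies to the left of its P point, from Kif23 (12.4 and 8.27) to Ttk (3.52 and 0.049).

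The difference was graded. Over 8-fold lower in D were Cdk1, Ccnb1, Ccnb2, Aurkb, Bub1, Bub1b, Ttk, Cenpa, Nuf2, Nusap1, Hmmr, Cdc20, Ube2c and Top2a, 14 of 32 members. Less than 2-fold lower were Cks2, Kif23 and Hmgb2 alone, and the other 15 members lay between, with Ndc80 at the upper edge (7.99-fold). After the shift was removed, 22 members were over 8-fold lower and 0 were less than 2-fold lower. Hmgb2, Cks2 and Kif23 together made up 31.0% of the members' UMIs in P and 69.4% in D. Without them, the other 29 members summed to 410 CPM (402 to 418) for P and 48.9 CPM (45.9 to 52.0) for D, a log2 ratio of −3.07 (−3.16 to −2.97).

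The promoters of genes from both ends of this range are shown, since promoters of this family share known elements. The CCAAT box (CCAAT, or ATTGG on the other strand) is bound by the factor NF-Y. The cell cycle genes homology region (CHR; TTTGAA, or TTCAAA) is bound by the MuvB core of the DREAM complex, a repressor of these genes in resting cells. Each line gives the 120 bases before the RefSeq transcription start (GRCm38.p6), 5′ to 3′ on the gene's strand, with matches to both motifs in capitals. Cdk1 (chr10:69352913-69353032, minus strand), Cdc20 (chr4:118437344-118437463, minus) and Top2a (chr11:99024190-99024309, minus) were over 8-fold lower in D. Hmgb2 (chr8:57511723-57511842, plus), Cks2 (chr13:51645112-51645231, plus) and Kif23 (chr9:61946800-61946919, minus) were the 3 least lowered members.
Cdk1: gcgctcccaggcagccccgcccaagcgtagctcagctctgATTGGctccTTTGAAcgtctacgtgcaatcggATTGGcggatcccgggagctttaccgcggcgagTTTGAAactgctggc
Cdc20: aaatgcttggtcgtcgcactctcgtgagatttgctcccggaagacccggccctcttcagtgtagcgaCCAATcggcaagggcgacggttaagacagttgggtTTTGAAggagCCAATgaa
Top2a: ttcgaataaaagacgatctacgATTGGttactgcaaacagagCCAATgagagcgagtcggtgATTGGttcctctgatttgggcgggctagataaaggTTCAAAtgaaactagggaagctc
Hmgb2: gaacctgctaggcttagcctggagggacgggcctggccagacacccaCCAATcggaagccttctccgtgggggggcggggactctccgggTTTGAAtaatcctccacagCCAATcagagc
Cks2: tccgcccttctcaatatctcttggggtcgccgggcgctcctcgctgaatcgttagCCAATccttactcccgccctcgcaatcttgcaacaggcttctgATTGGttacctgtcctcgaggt
Kif23: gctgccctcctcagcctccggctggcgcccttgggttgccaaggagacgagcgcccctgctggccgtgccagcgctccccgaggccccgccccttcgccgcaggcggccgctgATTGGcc
These windows are upstream of the annotated genes, apart from the last 26 bases of the Cdk1 window and the last 9 of the Cdc20 window, which lie in the first exon of GENCODE transcripts. In the Cdk1 window both motifs occur more than once, with TTTGAA at 71 and 15 bases before the start. Hmgb2 holds both motifs as Cdk1 does, although its level differed far less between the libraries, and Cks2 and Kif23 show CCAAT boxes alone. Over the 250 bases before the start and both strands, CCAAT was found in 21 of the 29 members with a RefSeq window (72.4%), compared with 37.5% of all 27025 genes with one. TTTGAA was found in 10 of 29 (34.5%), compared with 18.3% of all genes, and both motifs in 9 of 29 (31.0%), compared with 7.34%. By class, CCAAT was present in 11 of 13 members over 8-fold lower, 7 of 13 between the bounds and 3 of 3 less than 2-fold lower. TTTGAA was present in 5 of 13, 4 of 13 and 1 of 3, so that most members over 8-fold lower lack it. Cdk1, Cdc20 and Top2a, printed from that class and chosen for holding both motifs, do not stand for it. The E2F letters TTTCCCGC or TTTGGCGC were in 0 of 29 member windows and in 1.51% of all genes. A match is a description of the sequence and not a bound site. Ccna2, Aurkb and Tpx2 were not among the windows used here.

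CDK1 and its cyclins were scarce in D. Cdk1 (ENSMUSG00000019942), the kinase that starts mitosis, was at 22.7 CPM (20.9 to 24.6) in P, from 605 UMIs, and at 1.58 CPM (1.08 to 2.22) in D, from 32 UMIs, a log2 ratio of −3.85 (−4.41 to −3.33). Ccnb1, cyclin B1, was at 13.2 and 0.739 CPM (351 and 15 UMIs), with a log2 ratio of −4.15 (−5.01 to −3.41). Ccnb2, cyclin B2, followed at 13.3 and 1.13 CPM (−3.56). For Ccna2, cyclin A2, which is active from S phase to early mitosis, levels were 7.20 and 1.08 CPM (−2.73, −3.44 to −2.09). The cyclins and CDK1 thus differed from 6.64-fold to 17.8-fold. Cks2, a small protein that binds cyclin-dependent kinases, behaved differently, with 43.8 CPM in P (1169 UMIs) and 28.3 CPM in D (574 UMIs), a 1.55-fold lower level (1.40 to 1.72). Cks2 has a close paralog, Cks1b, so that its count is uncertain to that extent.

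The kinases and checkpoint proteins had few UMIs in D, 91 over all 6 genes against 1121 in P. Ttk, a kinase of the spindle assembly checkpoint, had the lowest ratio, with 94 UMIs in P against 1 UMI in D, a log2 ratio of −6.16 whose interval runs from −11.48 to −3.65. Its checkpoint partners Bub1 and Bub1b were also scarce, Bub1 with 78 UMIs against 4 (−3.89) and Bub1b with 181 against 16 (−3.11). Aurkb, the kinase of the chromosomal passenger complex, was at 6.60 CPM in P and at 0.345 in D (−4.26, −5.59 to −3.18). Birc5, the survivin subunit of that complex, was at 17.6 CPM (470 UMIs) and 2.46 CPM (50 UMIs), a log2 ratio of −2.84 (−3.29 to −2.42). For Aurka, a spindle pole kinase, 122 UMIs in P compared with 13 in D (−2.84). Birc5 was therefore the only gene of this role with at least 20 UMIs in D.

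At centromeres and kinetochores, all 5 genes were at least 6.25-fold lower in D. Cenpf, a large kinetochore protein, was at 35.4 CPM in P (945 UMIs) and 5.66 in D (115 UMIs), a log2 ratio of −2.64 (−2.94 to −2.36). Cenpa, the histone H3 variant that marks centromeres, was at 29.8 and 2.61 CPM (−3.51, −3.94 to −3.11). For the kinetochore motor gene Cenpe, 357 UMIs in P compared with 37 in D (−2.88). Nuf2 and Ndc80, subunits of the complex that grips microtubules, were less well counted, Nuf2 with 55 UMIs against 5 (8.37-fold lower) and Ndc80 with 84 against 8.

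Spindle genes ranged more widely. Hmmr and Nusap1, which bind spindle microtubules, were 12.6-fold and 10.9-fold lower in D, at 14.3 and 19.9 CPM in P. The microtubule-depolymerising motor gene Kif2c (109 and 11 UMIs), the spindle pole gene Aspm (132 and 16) and Kif11 (105 and 14), the motor that pushes spindle poles apart, had log2 ratios of −2.91, −2.65 and −2.51. Smaller differences were found for Tpx2, an activator of Aurora A, at 11.4 and 2.86 CPM (log2 interval −2.43 to −1.59), and for the kinesin gene Kif20b at 9.74 and 2.76 CPM (−1.82, −2.26 to −1.40). Tacc3, which stabilises spindle fibres, was least lowered of this role, at 7.53 and 2.36 CPM (−1.67, −2.16 to −1.21).

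Cytokinesis genes, which act when the cell body divides, had the smallest summed difference of the 7 roles, with a log2 ratio of −1.11 (−1.34 to −0.89). Anln, a scaffold of the contractile ring, was at 7.50 and 1.33 CPM (−2.50). Ect2, an activator of RhoA at the division plane, was at 3.86 and 1.38 CPM (−1.49, −2.14 to −0.87). Kif23, a motor of the central spindle, showed the smallest difference of all members, 330 UMIs against 168, a log2 ratio of −0.58 (−0.86 to −0.31). The ubiquitination genes that end mitosis had the largest summed difference, −3.99 (−4.32 to −3.67). Ube2c, the E2 enzyme of the anaphase-promoting complex, was at 49.4 CPM in P, from 1318 UMIs, and 2.56 CPM in D, from 52 UMIs, 19.3-fold lower (14.6 to 26.0). Cdc20, which activates that complex, was at 17.8 and 1.67 CPM, 10.6-fold lower.

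Of the chromatin genes, Top2a, the topoisomerase that untangles sister DNA, was at 48.1 CPM (45.5 to 50.8) in P and 4.92 CPM (4.01 to 5.99) in D. Mki67 (ENSMUSG00000031004, chr7:135689784-135716361, GRCm38), the Ki-67 proliferation marker, was 5.79-fold lower (4.63 to 7.32), and Top2a 9.76-fold (7.96 to 12.1). These intervals treat UMIs as separate draws, but 26 of 88 Mki67 and 49 of 100 Top2a UMIs in D lay in 4 cells. Whether these genes differ in fold was not tested. Hmgb2 (ENSMUSG00000054717, chr8:57511907-57515999), a DNA-bending protein, was at 128 CPM (124 to 133) in P, from 3421 UMIs, and at 74.4 CPM (70.7 to 78.3) in D, from 1511 UMIs, a log2 ratio of −0.78 (−0.87 to −0.70). The gene of its close paralog Hmgb1, which could share reads with it, was at 148 and 185 CPM. In all, 21 of 32 members kept at least 20 UMIs in D and 11 did not, the latter being Ccnb1, Aurka, Aurkb, Bub1, Bub1b, Ttk, Nuf2, Ndc80, Aspm, Kif11 and Kif2c.

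In the summed libraries, fewer cells with these transcripts and fewer transcripts per cell cannot be told apart, so the number of members detected in each cell was counted. Because detection depends on depth, each cell was thinned to 2100 UMIs, which left 6638 cells of P and 4417 of D and set aside 180 and 479 shallower ones. At least 3 of the 32 genes were detected in 359 cells of P (5.41%, exact binomial 95% interval 4.88 to 5.98%) and 16 cells of D (0.362%, 0.207 to 0.588%). At least 8 were detected in 230 (3.46%) and 7 (0.158%) of the P and D cells. Without thinning, the shares with at least 3 were 6.88% and 1.12%. Cells with exactly 1 detected member were about as common in D as in P, at 21.0% and 22.1%.

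As a rough guide to background, detection was also counted in cells with markers of cornifying or luminal cells. Neither free RNA nor division was measured in them. In P cells with at least 5 UMIs of Flg, a gene of cornifying cells, 1.25% (5 of 401) had at least 3 members, compared with 5.68% of all other P cells. In D cells with at least 5 uroplakin UMIs, 0.161% (2 of 1240) did, compared with 0.441% of the others. This uroplakin group included 1 cell with 12 members and 13 uroplakin UMIs before thinning. Median depths were 4959 and 3349.5 UMIs for the P groups and 4839.5 and 2929 for the D groups. Top2a was detected in 0.499% of the Flg cells and 4.71% of the other P cells. In D it was detected in 0.323% of the uroplakin cells and 0.567% of the others, with overlapping intervals. Mki67 was detected in 0.161% and 0.976% of these D cells. Of the 3 least lowered members, Cks2 and Kif23 were detected more often in the uroplakin cells of D, and Hmgb2 somewhat less often. Hmgb2 was detected in 12.5% of uroplakin cells and 14.4% of the others, Cks2 in 6.13% and 5.29%, and Kif23 in 2.50% and 1.29%. In P, Hmgb2 was detected in 12.7% of the Flg cells and 18.1% of the others, Cks2 in 2.24% and 7.34% and Kif23 in 0.748% and 2.04%. At least 1 member was detected in 72 of 401 and 31.5% of these P cells and in 22.6% and 23.1% of these D cells. In D, detection of any 1 of the 32 members thus did not set the uroplakin cells apart, although Mki67 was rarer in them. At least 1 of the 29 members other than Hmgb2, Cks2 and Kif23 was detected in 3.06% of the uroplakin cells (2.18 to 4.18%). In the other D cells the share was 4.44% (3.75 to 5.21%). For P it was 3.99% of the Flg cells and 15.5% of the others.

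**Figure D2:**
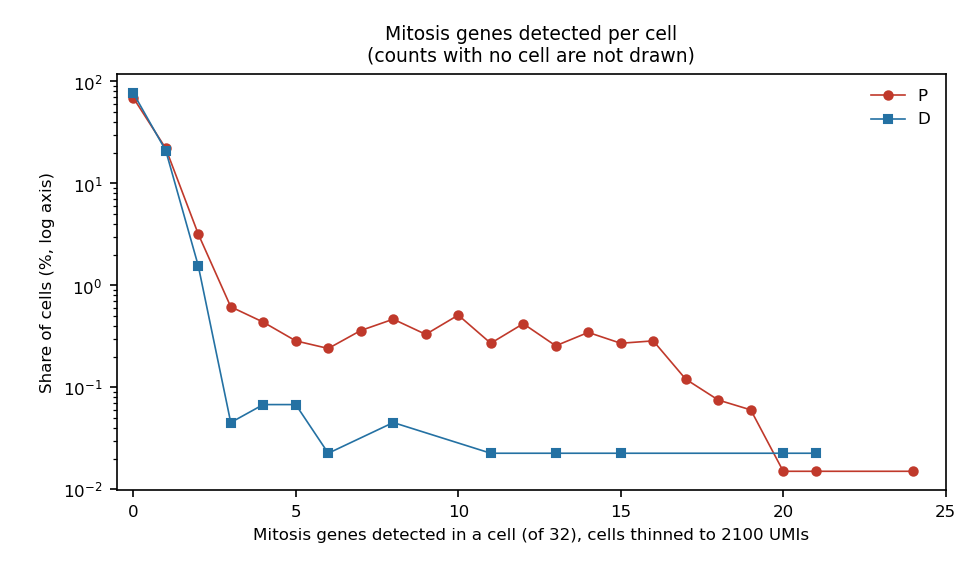
Share of cells (%, log axis) by the number of mitosis genes detected after thinning to 2100 UMIs, for P (red) and D (blue). Both libraries fall steeply to 2 genes, after which P keeps a plateau of cells with 3 to 16 genes while D has 1 to 3 cells at each count that occurs.

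In P, the number of members per thinned cell fell from 4602 cells with 0 to 16 cells with 6, and then varied between 16 and 34 cells at each count up to 16 genes, with 8 cells at 17. The highest count in P was 24 genes. In D, all but 16 of the 4417 thinned cells had fewer than 3 members, and the highest count was 21. Without thinning, 350 P cells (5.13%) and 14 D cells (0.286%) had at least 5 members.

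These few cells held most of the transcripts in P but not in D. The 350 P cells with at least 5 members held 76.1% of all member UMIs (75.4 to 76.8%), while the 14 D cells held 24.2% (22.7 to 25.7%). The remainder in D was largely Hmgb2, Cks2 and Kif23. Of the 993 D UMIs of the other 29 members, 615 (61.9%) came from those 14 cells and 469 (47.2%) from the 4 cells with at least 20 members, 0.0817% of D cells. For each gene, the share of its UMIs in cells with at least 5 other members was then taken, so that the gene did not choose its own cells. The share also depends on how many such cells a library holds, and D held far fewer. A gene at like levels inside and outside these cells therefore has a smaller share in D. This share ranged from 44.9% for Hmgb2 to 97.4% for Bub1 in P, with a median of 89.5%, and was under 50% for Hmgb2 alone. In D it ranged from 7.14% for Kif23 to 100% for Bub1, Ttk and Nuf2, with a median of 70.1%, and was under 50% for 12 members. The values of 100% rest on 4, 1 and 5 UMIs, and 11 members had under 20 UMIs in D, so many D shares are uncertain.

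**Figure D3:**
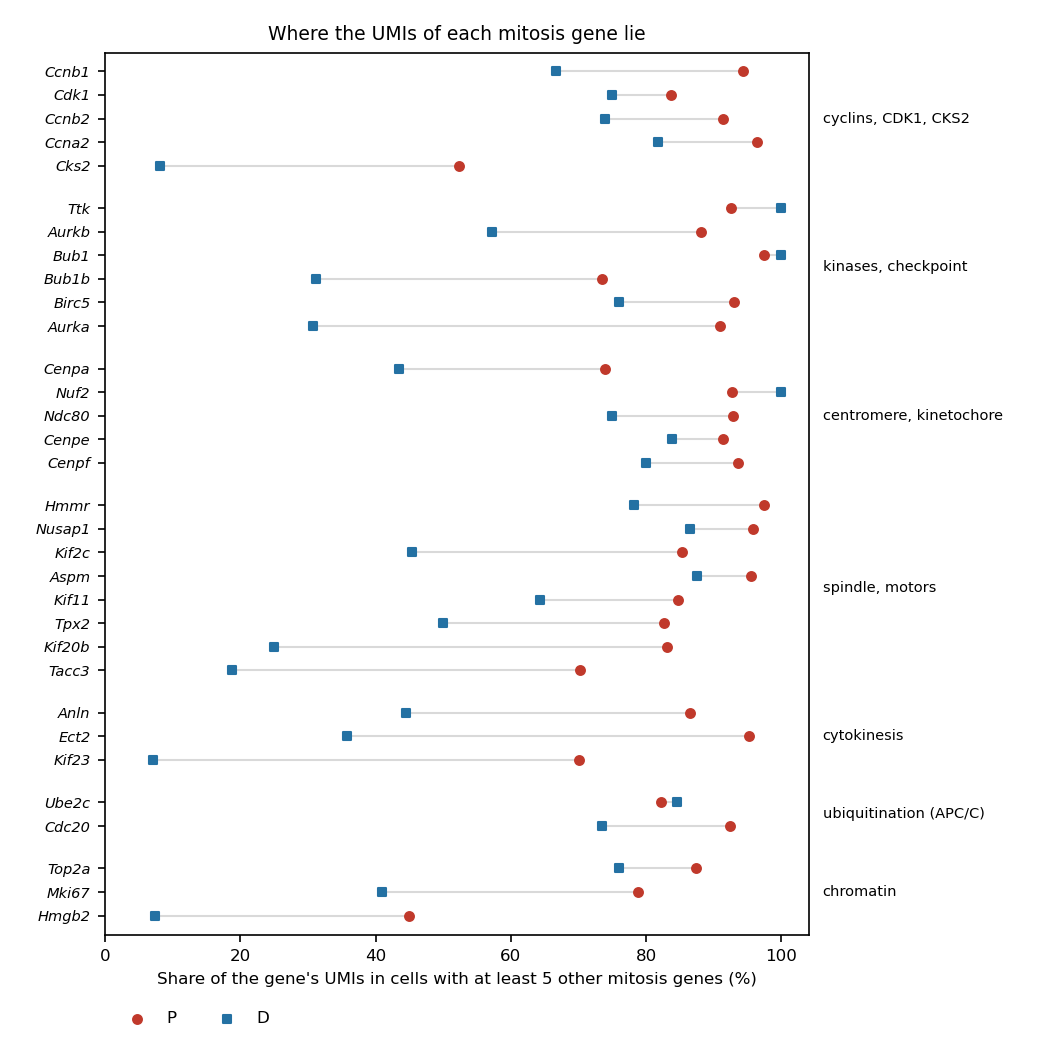
Share of each gene's UMIs (%) that lay in cells with at least 5 other mitosis genes, in P (red circles) and D (blue squares), grouped by role. In 28 of 32 genes the P share is the larger, and the widest gaps are those of Kif23, Ect2, Aurka, Kif20b and Tacc3. The share also depends on the number of such cells, which was far smaller in D, so a gap alone is not a change of the gene.

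Genes thus differed in what remained in D outside these cells. Kif23 had 7.14% of its 168 D UMIs in cells with at least 5 other members, Hmgb2 7.41% of 1511 and Cks2 8.19% of 574. Tacc3 had 18.8% of 48, Ect2 35.7% of 28 and Kif20b 14 of its 56 UMIs. By contrast, Cenpe had 83.8% of 37, Ube2c 84.6% of 52, Cenpf 80.0% of 115 and Top2a 76.0% of 100. Mki67 lay between, with 40.9% of 88 UMIs in D and 78.8% in P.

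Levels within the cells with at least 5 other members (330 to 350 cells of P, depending on the gene, and 14 of D) are given as a description. Cells enter this class by holding co-expressed transcripts, which favours like levels in P and D, so the values do not say whether transcripts per cell differed. Top2a was at 698 CPM in these P cells and 874 in these D cells, Cdk1 at 310 and 276, and Ube2c at 671 and 506. The median log2 ratio of D over P was 0.29 over the 32 members, with an interval including 0 for 24, above 0 for 8 and below 0 for 0. Single D cells decided much of this. Without the D cell with the most UMIs of each gene, a choice that can only lower the ratio, the median was −0.30, and the interval lay below 0 for 4 members. The 8 members above 0 were Ccna2, Cks2, Birc5, Cenpe, Cenpf, Tpx2, Aspm and Hmgb2, and 3 of them, Birc5, Cenpf and Tpx2, were still above 0 without that cell. Cenpe, with 20 of its 31 D UMIs in 1 cell, turned from 0.84 to −0.52, and Ccna2, with 9 of 18 in 1 cell, went from 0.90 to 0.02. Cenpf, with 31 of 92 in 1 cell, went from 0.98 to 0.52.

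In all other cells, 15 members had intervals below 0 in D, 11 included 0 and 3 lay above 0, while Bub1, Ttk and Nuf2 had no UMI in D. These cells had fewer than 5 other members detected, so they are not cells without mitosis genes. Cells with 3 or 4 members numbered 119 in P and 41 in D. Whether levels differed in cells that were not dividing was not tested. Ube2c had the lowest ratio there, with 9.37 CPM in P, from 235 UMIs, and 0.396 CPM in D, from 8 UMIs, a log2 ratio of −4.57 (−5.80 to −3.56). Cdk1 (−3.32), Aurkb (−2.50, from 21 UMIs in P and 3 in D), Cenpa (−2.48) and Top2a (−2.44) followed among genes with a D UMI there. Hmgb2 was nearly level, at 75.1 and 69.2 CPM (−0.12, −0.22 to −0.02). Above 0 were Cks2 at 0.23 (0.05 to 0.40), Kif23 at 0.96 (0.59 to 1.34) and Ect2 at 2.16 (0.67 to 3.94), the last with 5 UMIs in P and 18 in D. With the shift of 0.42 taken off, the Cks2 ratio was below 0 and those of Kif23 and Ect2 were above it. Kif23 was thus lower in D over the whole library and higher in D outside the cells with at least 5 other mitosis genes, at 3.96 and 7.72 CPM.

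**Figure D4:**
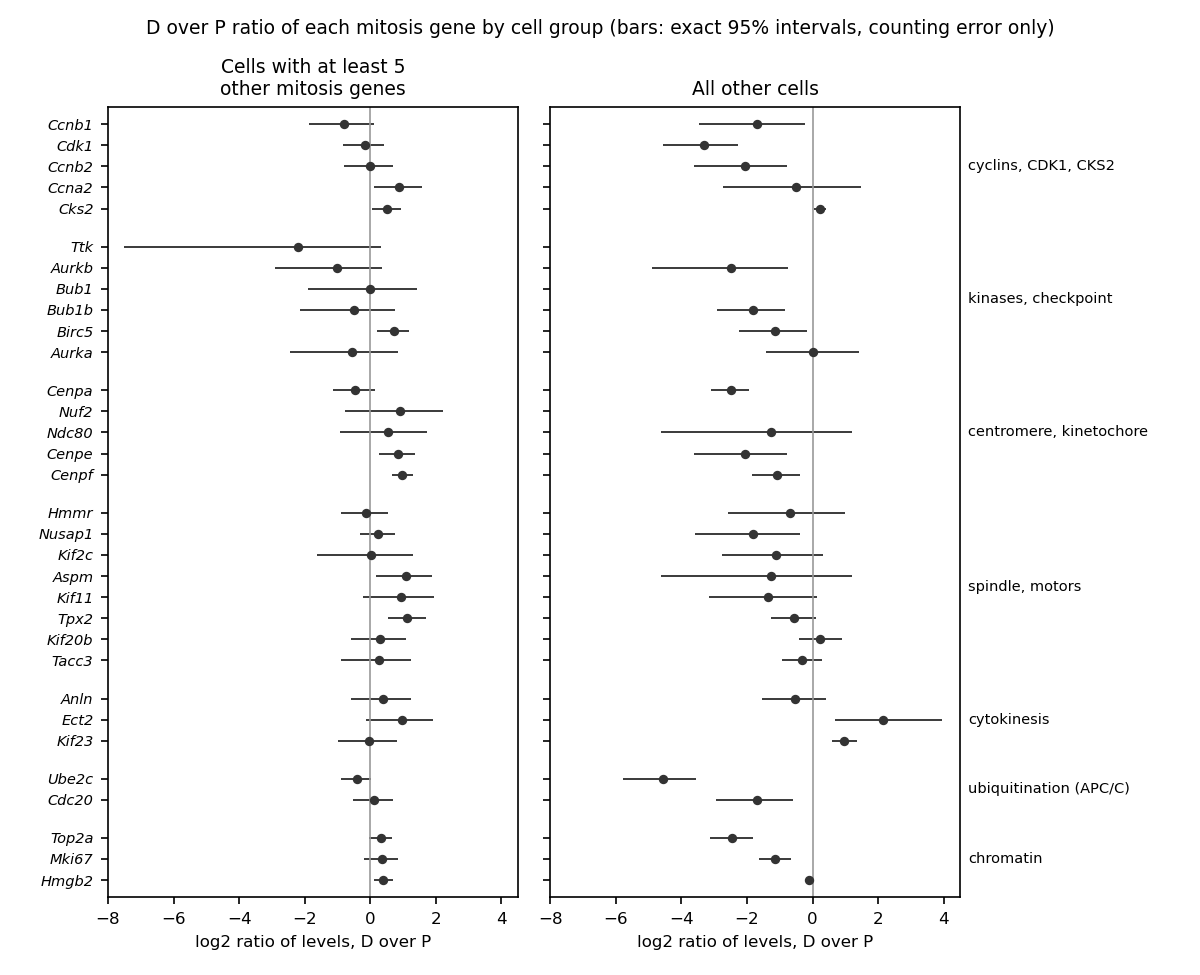
log2 ratio of each gene's level, D over P, in cells with at least 5 other mitosis genes (left) and in all other cells (right), with exact 95% intervals. On the left, where cells were chosen on the other members, 24 of 32 intervals include 0. On the right, where cells had fewer than 5 other members, 15 lie below 0, 11 include it, and those of Cks2, Kif23 and Ect2 lie above it. Bub1, Ttk and Nuf2 had no D UMI in the other cells and are not drawn there.

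The 14 D cells with at least 5 members were described one by one, as they were few. They held 30, 29, 27, 26, 15, 13, 12, 11, 11, 10, 10, 8, 7 and 6 members. Their median depth was 6090.5 UMIs, above the 3223 of the other D cells, and depth was not tested as a source of the high counts. With the 5% deepest cells of each library left out, the thinned D share with at least 3 members was 0.360%. The cell with 30 members carried 211 member UMIs among 7644 (2.76%), with 31 of Cenpf, 19 of Top2a and 17 of Mki67. The next 3 carried 105, 124 and 132 member UMIs, with 5, 11 and 14 of Top2a, while Ccnb1 had 1 or 4 UMIs in each of these 4 cells. None of the other 10 cells had a Ccnb1 UMI.

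S-phase genes varied among these D cells, from 0 to 52 UMIs. The 4 cells with 26 to 30 members had 6 to 13 UMIs of the 49 S-phase genes, or 1220 CPM together (850 to 1697). The 6 cells with 10 to 14 members had 4812 CPM (4125 to 5580), and the cell with 15 members had 32 UMIs in 5781. In P, where each sum pools many more cells, values were 2167 CPM in 79 cells with 5 to 9 members, 1546 in 97 cells with 15 to 19 and 1590 in 85 with 20 or more. All of these sums lie above the 373 CPM of P cells and 421 CPM of D cells with fewer than 5 members.

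The cells with mitosis genes carried basal transcripts. In P, the 6 basal genes summed to 7064 CPM in cells with at least 5 members and 5527 in cells with 0, with Krt14 at 2907 and 1671 CPM and the integrin gene Itgb4 at 135 and 67.8, whereas Krt5 was level at 3480 and 3419 (log2 ratio 0.03, −0.01 to 0.06). In D, the basal sum was 16216 CPM in the 14 cells and 8429 in cells with 0 members, with Krt14 at 10132 and 4104. Krt14 and Krt5 gave 881 and 479 of the 1410 basal UMIs in the 14 cells. Trp63, Itga6, Itgb4 and Cd44 had 10 to 15 UMIs each there, and the intervals of their ratios included 0. Each of the 14 cells had UMIs of both Krt5 (19 to 63) and Krt14 (23 to 123). Intermediate genes were lower in the same cells, at 2759 and 7317 CPM in P and 3335 and 10957 in D. Psca, a surface protein of upper layers, had the lowest ratio of the 9 genes in both libraries, at 321 and 2163 CPM in P and 219 and 1624 in D.

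Squamous and luminal genes were also lower, as sums, in cells with at least 5 members. In P the uroplakins summed to 8.42 CPM in these cells (14 UMIs) and 23.5 in cells with 0 members. Of these UMIs, 11 were of Upk1b, at 6.62 and 6.76 CPM (log2 ratio −0.03, −1.08 to 0.88). Squamous genes were at 187 and 537 CPM in P, with Flg at 60.8 and 231, and at 46.0 (4 UMIs) and 287 in D. Lor, the cornified envelope gene of the same list, went the other way in P, with 30 and 136 UMIs in these cells and in cells with 0 members (log2 ratio of CPM 0.87, 0.25 to 1.45). Cells with 1 to 4 members in D had 301 to 340 CPM of squamous genes, above the 287 of cells with 0, and 1282 to 1453 CPM of uroplakins. Uroplakins were at 219 CPM in the 14 D cells and 1193 in D cells with 0 members, a log2 ratio of −2.45 that was −4.71 when cells were grouped after thinning, with 3 uroplakin UMIs in 11 cells. Of the 19 uroplakin UMIs in those 14 cells, 13 came from 1 cell with 12 members and 12761 UMIs, the deepest of them. No UMI of the leukocyte, endothelial or erythroid lists was found in the 14 cells, while Dcn had 16, at 184 CPM against 70.1 in D cells with 0 members. Its part in these levels was not tested. Grouped without thinning, D cells with 3 or 4 members did not share this profile. Of these, 34 of 41 had a uroplakin UMI (82.9%) at a median depth of 7781 UMIs. Their further mitosis genes were at 416 CPM against 5382 in the 14 cells. Grouped after thinning, 5 D cells had 3 or 4 members, and they shared part of the profile. Their further mitosis genes were at 1509 CPM and basal genes at 10707.5, against 391 and 8009 in cells with 0 members. Uroplakins were not lower there, at 1401 and 1281 CPM.

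Other cell cycle genes were compared by lists chosen with earlier results of these data known. Of 74 further G2 and mitosis genes, 53 were at least 2-fold lower in D and 1 was higher, against 6.89% and 15.5% of all genes, with a median log2 ratio of −1.85. The lowest were Cdc25c, the phosphatase that activates CDK1 (60 and 1 UMIs), the kinetochore gene Ska1 (49 and 1) and Sapcd2 (64 and 2). At the other end, Cenpt, a centromere protein, was at 1.72 and 5.32 CPM (1.63), Gtse1 at 4.31 and 7.78 (0.85) and G2e3 at 37.6 and 55.8 (0.57).

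S-phase genes differed far less than mitosis genes, with a median of −0.10 and 10 of 48 at least 2-fold lower, against 6.89% of all genes (a median of −0.53 after the shift was removed). Tk1, thymidine kinase 1, was at 6.03 and 1.03 CPM (−2.54), Mcm10 had 46 and 7 UMIs (−2.32) and Ung, a uracil glycosylase, 126 and 23 (−2.06). Mcm6 (0.61), Pcna (0.56) and Rpa1 (0.53) were the highest, none of them 2-fold higher in D.

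**Figure D5:**
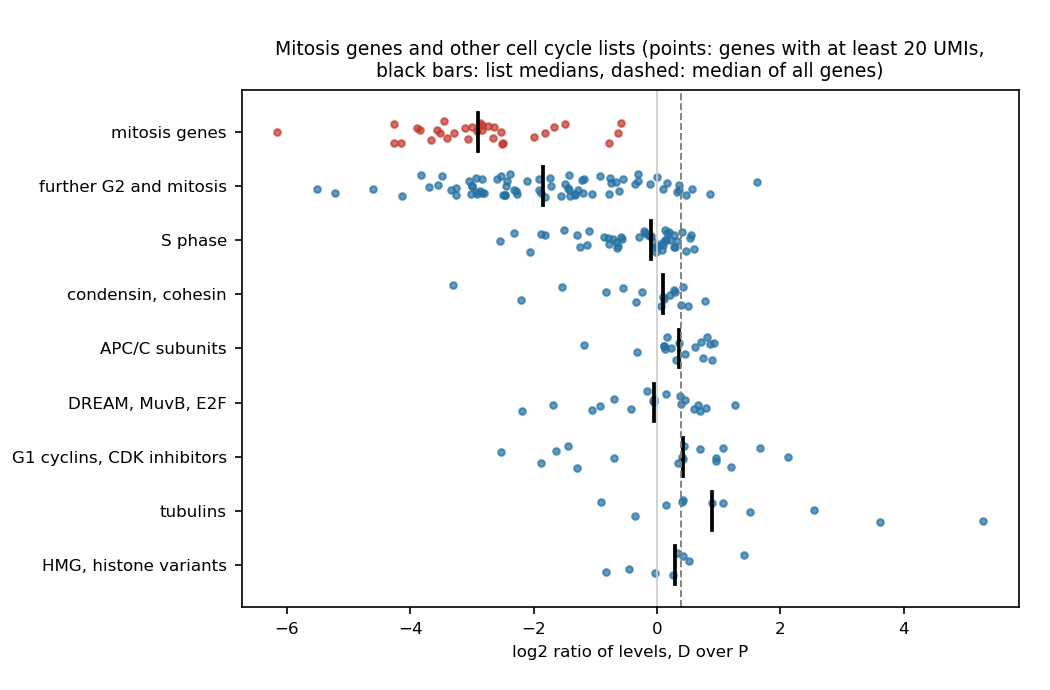
log2 ratio of levels, D over P, for the 32 mitosis genes (red) and 8 other cell cycle lists (blue), 1 point per gene with at least 20 UMIs. Black bars are list medians, and the dashed line is the median of all genes (0.39), with the mitosis genes (−2.90) and the further G2 and mitosis genes (−1.85) lying left of the other lists.

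Among the structural partners of the members, condensin and cohesin genes had a median of 0.10, which turned to −0.32 after the shift was removed. The condensin subunit genes Ncapg (78 and 6 UMIs, −3.31), Ncapg2 (−2.21) and Ncaph (−1.54) were the 3 of 17 that were at least 2-fold lower, against 6.89% of all genes. Subunits and regulators of the anaphase-promoting complex, the partners of Cdc20 and Ube2c, had a median of 0.35 (−0.07 after the shift), and of 17 genes Fbxo5, an inhibitor of the complex, was the 1 at least 2-fold lower (−1.19), a share near the 6.89% of all genes. Regulators of the DREAM, MuvB and E2F families had a median of −0.05, with E2f7 (−2.19), E2f8 (−1.68) and E2f1 (−1.05) at the low end of 19. These lists therefore did not share the size of the members' difference.

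G1 cyclins and inhibitors of cyclin-dependent kinases went both ways, 5 of 17 at least 2-fold lower against 6.89% of all genes, and 4 of 17 higher, near the 15.5% of all genes. Ccnd1, cyclin D1, was at 131 and 22.8 CPM (−2.53), Cdkn2c at 8.51 and 2.31 (−1.88) and Ccne1, cyclin E1, at 1.99 and 0.640 (−1.63). The inhibitor genes Cdkn1c (2.12), Cdkn2b (1.67) and Cdkn1a (1.20), the last being the gene of p21, were higher in D, Cdkn1a at 119 and 273 CPM. Tubulins, the building blocks of the spindle and of the cell's other microtubules, had a median of 0.90, with Tuba1a at 1.61 and 62.8 CPM. Genes of HMG proteins and histone variants, the family around Hmgb2, had a median of 0.29 that turned to −0.13 after the shift was removed, with Hmgb3 highest at 1.40.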

How the data were processed

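The authors demultiplexed and aligned reads to the GRCm38/mm10 transcriptome with Cell Ranger 3.0.2, after bcl2fastq 2.19.0, per the submitters' processing notes. The deposited matrices hold raw UMI counts per gene and barcode. Cells with over 800 genes and at most 12% mitochondrial UMIs were kept, after the study's methods. Counts were summed over kept cells per library and scaled per 1000000 UMIs (CPM). Levels carry exact Poisson, shares exact binomial (Clopper-Pearson) and ratios exact conditional binomial 95% intervals, which cover counting error only. The removed shift is the median log2 ratio of 8939 genes. For shares of cells, cells were thinned at random to 2100 UMIs. No doublet caller was run, and leaving out the 5% deepest cells was an alternative. Clustering was not used. The members and lists were chosen with earlier results of these data known. All 32 members are named, and of each other list up to 3 genes at each end with at least 20 UMIs. Markers by cell group were named after their values were seen. Coordinates are from GENCODE vM21 and promoters from RefSeq (29 of 32 members matched). Python 3.11.15, numpy 2.4.6 and scipy 1.17.1 were used, tested on simulated data.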

Additional observations from a re-analysis of the deposited data

Results flagged for a closer look

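Some barcodes left out by the filter, which entered only the alternatives with all barcodes or a looser filter, carried mitosis genes. At least 5 of the 32 genes were detected in 24 of 1376 left-out barcodes of P (1.74%, exact binomial 95% interval 1.12 to 2.58%) and in 7 of 2079 of D (0.337%, 0.135 to 0.692%). Among kept cells the shares were 5.13% and 0.286%. The left-out barcodes had median depths of 1657 UMIs in P and 885 in D, below those of kept cells, and these shares were not thinned. Per 1000000 non-mitochondrial UMIs, the members summed to 385 in left-out and 632 in kept barcodes of P, and to 201 (182 to 222) in left-out and 172 (166 to 178) in kept barcodes of D. The highest number of members in 1 left-out barcode was 15 in P and 18 in D.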

How the results depend on the processing

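No paired analysis was possible because each condition held 1 library. All 32 members were lower in D under the 3 other scalings, the 3 other filters and without the 5% deepest cells, and 29 to 32 of them were at least 2-fold lower. Without the D cell with the most members, Ttk had no D UMI and the other 31 were lower. The alternatives without single D cells, with at least 8 members and with only the 28 members over 100 UMIs (25 at least 2-fold lower) were chosen after seeing the data. Without the 4 D cells with at least 20 members, the median log2 ratio of the members was −4.33, since those cells hold many of the D UMIs. The summed log2 ratio moved from −1.89 to −2.21 without mitochondrial and ribosomal protein genes, −2.32 scaled by the median ratio, −2.05 under the stricter filter, −1.82 without the 5% deepest cells, −1.99 without the D cell with the most members and −2.17 without those 4 cells. Without mitochondrial and ribosomal protein genes, list medians were −0.21 for condensin and cohesin, 0.0427 for the anaphase-promoting complex, −0.36 for DREAM, MuvB and E2F, 0.11 for G1 genes, 0.59 for tubulins and −0.0233 for HMG and histone genes. Scaled by the median ratio, they were −0.32, −0.0671, −0.47, −2.6e-05, 0.48 and −0.13, with S phase at −0.53. As a mean over cells, DREAM, MuvB and E2F stood at 0.0578 and tubulins at 0.98. The share of P cells with at least 3 members moved from 5.41% to 6.88% without thinning, 4.77% at 1500 UMIs and 6.98% under the stricter filter, and to 8.60%, 4.35% and 3.46% with at least 2, 5 and 8 members. In D it moved from 0.362% to 1.12% without thinning and to 1.92% and 0.158% with at least 2 and 8. The share of member UMIs in P cells with at least 3 members, 79.1%, was 76.1% with at least 5, 77.1% with at least 3 others, and 78.0%, 82.9%, 77.8% and 78.2% with the looser filter, the stricter filter, all barcodes and without the deepest cells. In D, 28.7% became 24.2% and 24.9% with at least 5 and with at least 3 others. With cells grouped after thinning, the log2 ratios between cells with at least 5 and 0 members became −1.70 for intermediate and −1.94 for squamous genes in P, and 1.18 for basal, −2.61 for intermediate and −4.71 for uroplakin genes in D. Also chosen after seeing the data, leaving out the D cell with the most UMIs of a gene turned Cenpe to −0.52 inside the cells with at least 5 other members. Causes of these shifts were not tested. With 1 library per condition, the spread between cultures is unknown.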
